A study of Mus musculus with 22 samples.

Results

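Immunoglobulin gene segments were followed in RNA of 3 organs, the thymus, the cerebrum and the cerebellum, in mice with the Tol transgene and in their WT littermates. The members were all listed genes that GENCODE M21 (GRCm38) gives an immunoglobulin V, D, J or C biotype and whose symbols begin with Igh, Igk or Igl, and 256 of the 34585 listed rows met this rule. They comprised 216 variable (V), 13 diversity (D), 14 joining (J) and 13 constant (C) genes, of which 138 lie in the heavy chain locus on chromosome 12, 106 in the kappa locus on chromosome 6 and 12 in the lambda locus on chromosome 16. Pseudogenes were not members.

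Tol mice carried the Tol transgene in the heterozygous state, under the CAG promoter and 3′ of Col1a1. They were made from C57BL/6J embryonic stem cells and crossed with C57BL/6JRj, WT littermates lacked the transgene, and all animals were 7 to 14 weeks old. The thymus and cerebrum were each represented by 4 Tol and 4 WT libraries, and the cerebellum by 2 Tol and 4 WT libraries. Totals ranged from 14543698 to 34776973 expected counts per library, with a median of 21577753.5, and 3 counts, used as the floor of detection, corresponded to 0.0876 to 0.207 CPM (counts relative to the library's total). All CPM were scaled by edgeR's TMM factors within the organ. The Tol transcript, which checks the labels, stood at 26.6 ± 3.11 CPM (SD, n = 4) in Tol thymi, 144 ± 11.2 CPM (n = 4) in Tol cerebra and 183 and 139 CPM in the Tol cerebella, against 0 to 2 counts in any WT library. The library labelled cerebellum Tol 2 stood apart from its organ, since the summed level of 8 markers of cerebellar neurons was 255 CPM there and 2672 to 6558 CPM in the other 5 cerebella. Among them Gabra6, a receptor subunit of cerebellar granule cells, was at 12.7 CPM there and at 321 to 772 CPM in the other 5.

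An immunoglobulin is made of heavy and light chains. In developing B cells, the RAG enzymes cut the DNA at V, D and J segments, and the ends are then joined. This joins 1 V, 1 D and 1 J segment of the heavy locus, and 1 V and 1 J segment of the kappa or lambda locus. Each B cell clone thus transcribes its own joined V region, spliced to a constant gene. The constant gene sets the class, with IgM (Ighm) and IgD (Ighd) made first and IgG, IgE or IgA made after class switching. Transcripts of heavy constant genes can also start from promoters upstream of the constant gene and then hold no V segment. The thymus is where T cells mature, and it is known to hold a small population of B cells and plasma cells.

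The J segments are printed here as the shortest members that took up counts, and because Igkj3, with few counts, lacks the marked motif. They are given 5′ to 3′ on the coding strand from GENCODE M21, in lower case, with capitals marking the motif that encodes the tryptophan or phenylalanine and the 2 glycines typical of joining segments (TGGGG in the heavy locus or TTCGG in the light chain loci, then 4 bases of any kind, then GG).
Ighj1: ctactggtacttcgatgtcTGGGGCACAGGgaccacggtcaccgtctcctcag
Ighj2: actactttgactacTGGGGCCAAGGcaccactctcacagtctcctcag
Ighj3: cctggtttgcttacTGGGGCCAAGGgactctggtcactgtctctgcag
Ighj4: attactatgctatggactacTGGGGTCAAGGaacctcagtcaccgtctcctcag
Igkj1: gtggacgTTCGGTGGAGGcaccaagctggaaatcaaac
Igkj2: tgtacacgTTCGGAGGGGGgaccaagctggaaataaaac
Igkj3: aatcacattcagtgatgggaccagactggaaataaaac
Igkj4: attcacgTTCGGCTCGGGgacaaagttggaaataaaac
Igkj5: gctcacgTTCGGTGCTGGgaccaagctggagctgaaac
Iglj1: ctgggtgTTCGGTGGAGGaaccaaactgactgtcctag
The heavy J segments lie on the minus strand of chromosome 12, from Ighj1 at chr12:113429781-113429833 to Ighj4 at chr12:113428514-113428567. The kappa J segments lie on the plus strand of chromosome 6, from Igkj1 at chr6:70722562-70722599 to Igkj5 at chr6:70723886-70723923, and Iglj1 lies on the minus strand at chr16:19063225-19063262. The motif was searched on both strands and was found on the coding strand of 12 of the 14 J genes. Igkj3, known as a nonfunctional joining segment, lacked it, and its closest window carried G4A, counted from 1 at the first base of the motif. Iglj3p also lacked it. In the first 38 bases of all 141715 annotated transcripts, either strand, the heavy form stood in 1.086% and the light chain form in 0.2569%.

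Igkj3 took up 3 counts over the 8 thymi, with 0 to 1 in a library, while its neighbours Igkj2 and Igkj4 took up 1268 and 554. Igkj1 had 760 counts and Igkj5 791 counts over the same thymi. In the heavy locus Ighj1 to Ighj4 took up 699, 1104, 486 and 739 counts, and every heavy J gene had at least 26 counts in each thymus. Iglj1 had 136 counts, and the other 4 lambda J genes had 10 or fewer. Thus all 4 heavy and 4 of 5 kappa J genes were seen in every thymus. Among the lambda J genes, Iglj2, Iglj3 and Iglj4 carried the motif but had 1, 10 and 0 counts over the thymi. Iglj3p, which lacked it, had 1. The motif therefore did not set apart the J genes with counts from those without. In the brain no J gene reached 10 summed counts in either organ.

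D segments were at 0 counts in all 22 libraries. They are 10 to 29 bases long, as in Ighd5-5 and Ighd1-1, shown as a D member of the shortest length and a longer one, both on the minus strand of chromosome 12.
Ighd5-5: gactacctac
Ighd1-1: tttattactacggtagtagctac
Reads were 65 bases long, longer than any D transcript and than a J transcript of 38 to 54 bases. A read of joined mRNA therefore runs over the borders of these short transcripts. The D counts of 0 are for this reason not read as absence of D-containing RNA. The J counts are compared between libraries and not as amounts of J-containing RNA.

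The thymus held nearly all of the immunoglobulin signal. The 256 members together stood at 1524 ± 140 CPM in Tol thymi (n = 4, 1330 to 1638) and 1790 ± 481 CPM in WT thymi (n = 4, 1319 to 2413), or 0.131 to 0.238% of a library's counts. The groups overlapped, and the difference of their mean log2 sums, Tol minus WT, was -0.20, smaller than the larger within-group SD of 0.38 on that scale. In bulk RNA fewer cells of a type and less RNA per cell cannot be told apart. The heavy locus gave 1050 ± 103 CPM in Tol and 1224 ± 286 CPM in WT thymi, the kappa locus 405 ± 47.9 and 511 ± 196 CPM, and the lambda locus 69.1 ± 12.5 and 55.3 ± 14.6 CPM. The highest sum of heavy and of kappa transcripts was that of the library WT 4 in both loci.

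**Figure D1:**
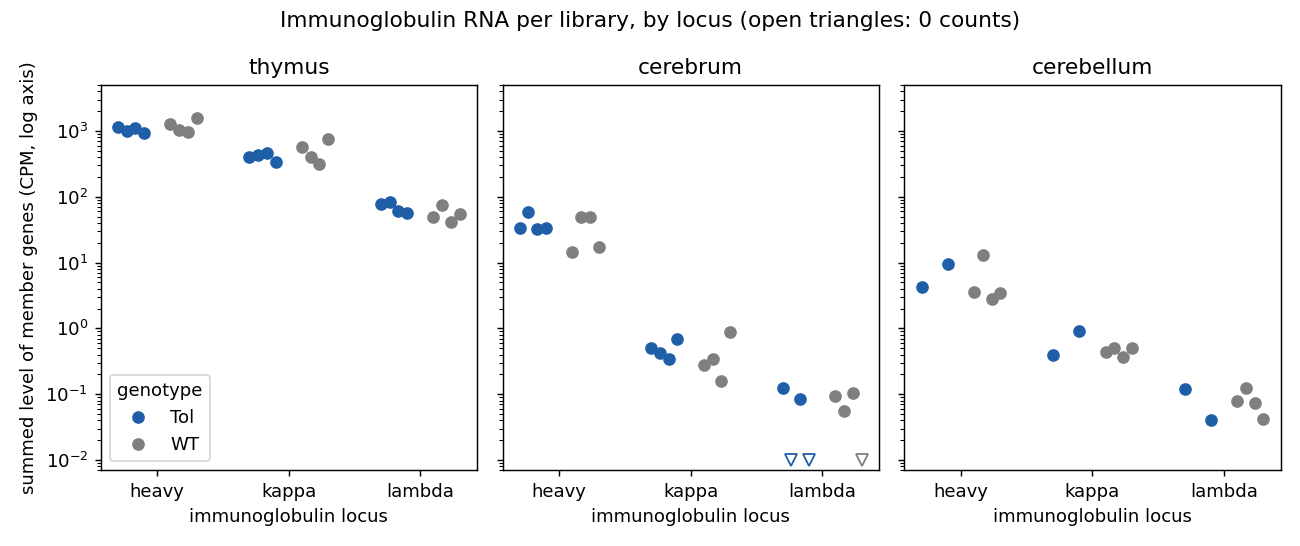
Summed TMM-scaled CPM (log axis) of all heavy, kappa and lambda members in each library, in 1 panel an organ, with open triangles for libraries at 0 counts. Thymi lie highest in all 3 loci, and in the brain the heavy locus stands above the light chain loci in every library.

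V and C genes can be set side by side only per length. Per kilobase of transcript, the heavy V genes together reached 0.442 to 0.684 of the level of the heavy C genes in thymi, with a median of 0.490. For kappa the ratio was 0.781 to 0.957 and for lambda 0.558 to 0.7098. In each thymus the V level per kilobase was thus below the C level in all 3 loci. Detection followed the same lines, as 207 of 216 V genes, 13 of 14 J genes and 13 of 13 C genes had any count in thymus. Of all members, 207 reached 3 counts in at least 1 thymus and 23 were at 0 in all 8.

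Among the constant genes, Ighm, which encodes the heavy chain of IgM, was the most abundant heavy chain transcript of the thymus. Its gene lies at chr12:113418558-113422730 on the minus strand and shares no 31-base word with another listed transcript. It stood at 789, 632, 791 and 626 CPM in Tol 1 to 4 and at 835, 712, 700 and 1126 CPM in WT 1 to 4. The groups overlapped and WT 4 was the highest. The log2 fold change, Tol against WT, was -0.25 (SE 0.15, edgeR adjusted p = 0.318). Per kilobase, its median level over the 8 thymi was 442 CPM, close to the 475 CPM of Igkc, the kappa constant gene.

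Igha, the heavy chain gene of IgA, the antibody class of mucosal surfaces, was the second heavy class. It stood at 164, 230, 94.3 and 119 CPM in Tol and at 187, 146, 106 and 148 CPM in WT thymi. The library Tol 2 was the highest and Tol 3 the lowest, so the spread among Tol thymi took in the whole WT range. Per kilobase its median was 57.8 CPM, and its log2 fold change was 0.05 (edgeR adjusted p = 0.926). Igha made up 25.2% of the heavy constant counts in Tol 2 (exact 95% interval 24.5 to 25.8, counting error only).

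Of the IgG genes, Ighg2b and Ighg2c were the more abundant. Ighg2b stood at 51.1, 31.3, 73.1 and 69.2 CPM in Tol and 69.0, 44.4, 40.2 and 47.7 CPM in WT thymi (log2 fold change 0.16, edgeR adjusted p = 0.717). Ighg2c stood at 9.61, 7.81, 18.8 and 9.10 CPM in Tol and 19.1, 17.1, 5.51 and 28.4 CPM in WT thymi (-0.65, edgeR adjusted p = 0.327). Both genes overlapped between genotypes, and they share 186 words of 31 bases, so their counts can be split uncertainly. Ighg1 stood at 1.17, 1.27, 1.35 and 0.398 CPM in the Tol thymi, against 4.798, 3.30, 1.18 and 11.9 CPM in the WT thymi. WT 1, WT 2 and WT 4 lay above all Tol values and WT 3 lay among them. Its log2 fold change of -2.36 (SE 0.59) did not pass after adjustment (edgeR adjusted p = 0.0837). Ighg3 lay between 1.78 and 4.52 CPM in every thymus.

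Ighd, whose product IgD marks mature naive B cells, stood at 6.08, 5.83, 6.92 and 7.11 CPM in Tol and 7.75, 6.76, 7.05 and 12.8 CPM in WT thymi (-0.42, edgeR adjusted p = 0.206). Ighe, the heavy chain gene of IgE, stood at 0.935, 1.93, 3.87 and 2.04 CPM in Tol and 0.614, 0.455, 4.02 and 1.15 CPM in WT thymi (0.50, edgeR adjusted p = 0.645). Ighe was thus detected in all 8 thymi, with Tol 3 and WT 3 the highest of their groups.

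Igkc, at chr6:70726435-70726966 on the plus strand within the lincRNA Gm30211 of the same strand, was the main light chain constant gene. It stood at 244, 261, 277 and 212 CPM in Tol and at 346, 238, 184 and 444 CPM in WT thymi (-0.29, SE 0.22, edgeR adjusted p = 0.441). The Tol range lay inside the WT range. In the lambda locus Iglc1 was at 30.6, 23.9, 18.9 and 5.82 CPM in Tol and 14.4, 19.1, 13.9 and 13.7 CPM in WT thymi, and Iglc2 at 16.0, 16.3, 13.9 and 26.0 CPM in Tol and 9.26, 24.1, 9.16 and 14.4 CPM in WT thymi. The library Tol 4 was the lowest of all 8 for Iglc1 and the highest for Iglc2. As a share, Iglv2 took 68.7% of the lambda V counts in Tol 4, while by CPM it was highest in WT 2, at 12.7 CPM. Iglc3 lay between 4.21 and 12.4 CPM, and Iglc4 had 0 to 1 counts and was not tested. Iglc1 and Iglc3 overlap the antisense gene 2010309G21Rik, and Iglc2 and Iglc3 share 106 words of 31 bases.

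Kappa made up 84.4 ± 1.99% of the light chain constant counts in Tol thymi (82.8 to 87.2%) and 88.3 ± 4.49% in WT thymi (82.8 to 92.3%). The ranges overlapped. From V genes the kappa share was 86.3 ± 2.58% in Tol and 90.6 ± 3.995% in WT thymi.

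**Figure D2:**
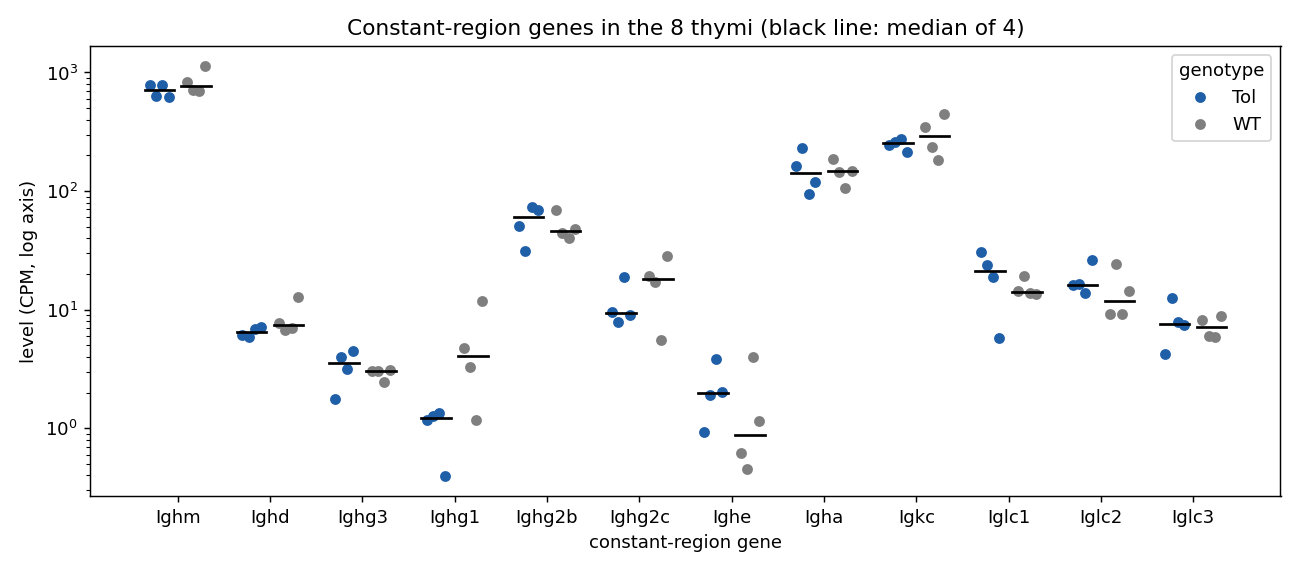
TMM-scaled CPM (log axis) of 12 constant genes in the 4 Tol and 4 WT thymi, each point 1 library and each line a group's median. Ighm and Igkc stand highest, and the genotypes overlap for every gene shown.

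V usage in the thymus was broad, and each library had a different leading set. With at least 3 counts, 60 to 84 of 113 heavy V genes (median 68.5) and 62 to 74 of 100 kappa V genes (median 69.5) were seen in a thymus. Only 40 heavy, 47 kappa and 3 lambda V genes reached 3 counts in all 8 thymi, and 31 of 216 V genes reached it in none. The most abundant V genes by mean level were Igkv1-110 at 18.4 CPM, Iglv1 at 12.04 CPM, Igkv1-117 at 10.8 CPM, Igkv12-89 at 7.89 CPM, Igkv10-96 at 7.32 CPM and Ighv1-26 at 6.60 CPM, as means over all 8 thymi. This order did not hold in each genotype, since Igkv1-110 averaged 30.8 ± 23.2 CPM in Tol and 6.04 ± 0.691 CPM in WT thymi, and Igkv1-117 9.36 ± 6.05 and 12.2 ± 10.9 CPM. The family Ighv1, with 53 members the largest heavy family, took 49.0 ± 6.96% of heavy V counts over the 8 thymi, and Igkv1, with 10 members, 22.04 ± 12.8% of kappa V counts.

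The effective number of V genes, the inverse of the summed squared shares, was 12.9 to 33.8 for heavy V and 4.95 to 25.9 for kappa V. The lowest values of both loci were in Tol 2, where Igkv1-110 took 1165 of 2662 kappa V counts, or 43.8% (exact 95% interval 41.9 to 45.7), and Ighv1-56 took 359 of 1436 heavy V counts, or 25.0% (22.8 to 27.3). In the other 7 thymi Ighv1-56 had 4 counts or fewer. The leading heavy V gene differed in all 8 thymi: Ighv1-26, Ighv1-56, Ighv1-53 and Ighv11-2 in Tol 1 to 4, and Ighv1-5, Ighv2-2, Ighv1-15 and Ighv6-3 in WT 1 to 4. The leading kappa V gene was Igkv8-30 in Tol 1, Igkv1-110 in Tol 2 and Tol 3, Igkv10-96 in Tol 4, and Igkv4-50, Igkv4-72, Igkv5-43 and Igkv1-117 in WT 1 to 4. Many V genes share sequence, since a median of 54.7% of their 31-base words (range 1.91 to 100) occur in no other listed transcript, so counts within a family can be split uncertainly.

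Some V genes had most of their level in 1 thymus. Of the 137 V genes with at least 50 counts over the 8 thymi, 31 had more CPM in 1 library than in the other 7 together. Of these, 11 were highest in WT 4 and 5 in WT 1. Over the 137, the highest library held a median of 34.4% of a gene's CPM. The minimum of 50 counts was summed over the 8 thymi, so a gene could pass it through 1 library alone. The 31 are thus a description, with no share over all genes beside them. Ighv6-7 had 416 counts in WT 4 and 0 in the other 7 thymi. Igkv4-50 had 542 counts in WT 1 and at most 19 elsewhere, and Igkv12-41 had 427 in WT 4 and at most 23 elsewhere. Igkv3-2 had 744 counts in WT 4 and at most 57 elsewhere. These genes were high in a single thymus and low in the other mice of the same genotype. Some of the examples named here were chosen after their values were seen.

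**Figure D3:**
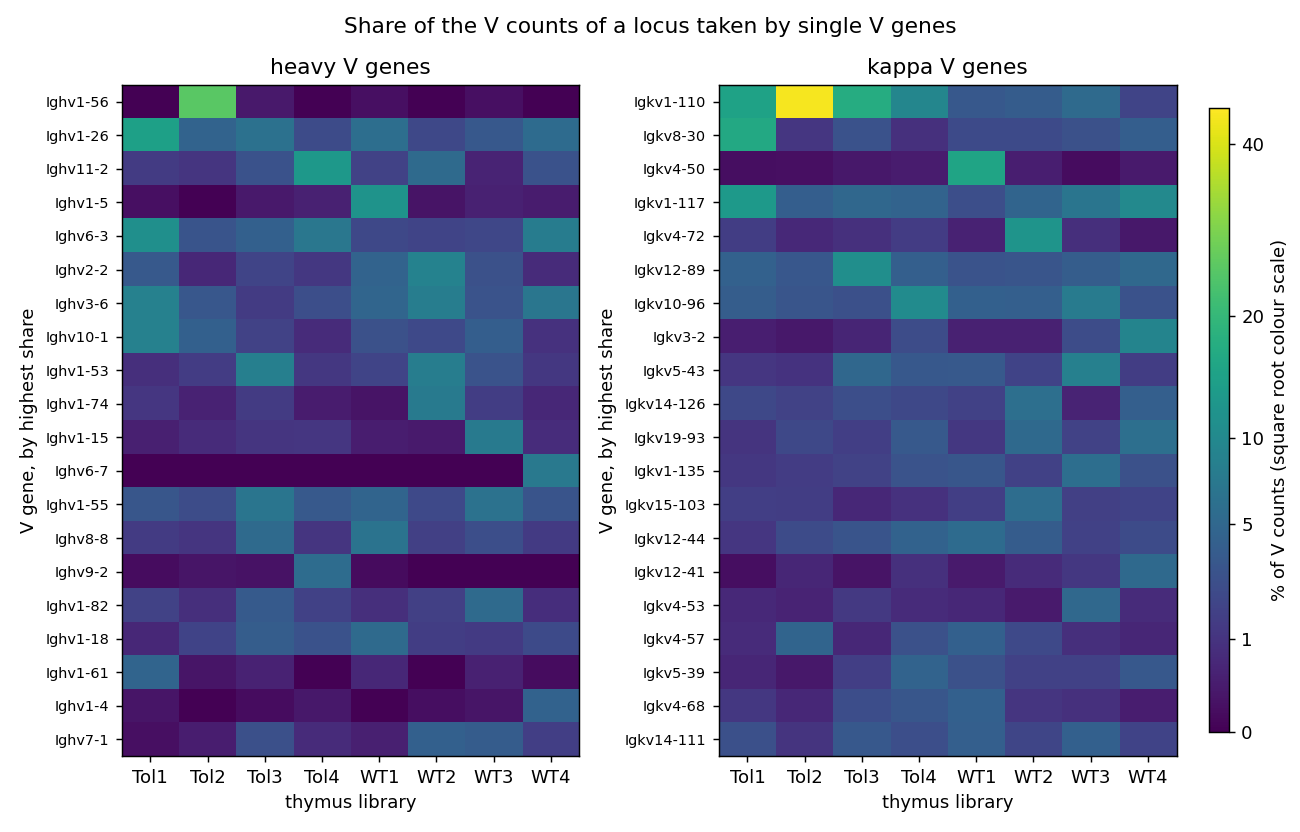
Percent of a locus' V counts taken by each of the 20 heavy and 20 kappa V genes with the highest share in any thymus, for the 8 thymi (colour on a square-root scale). Bright cells, which mark high shares, stand mostly alone in a row, and Igkv1-110 in Tol 2 is the highest at 43.8%.

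Whether the Tol transgene went with a change of immunoglobulin transcripts was asked by the Tol against WT test. In thymus 121 of the 256 members passed the filter on low counts, and 0 of them had an edgeR adjusted p under 0.05, against 0.0985% of all genes tested (16 of 16248). With an unadjusted p under 0.05 there were 25 members, 3 higher and 22 lower in Tol, against 13.3% and 11.1% of all genes. Of the 121, 87 had a log2 fold change under 0, against 48.6% of all genes, and the median was -0.51 against 0.01 over all genes tested. This direction rested in large part on WT 4, the library with the highest immunoglobulin sum: without WT 4 the median of the members was -0.14, with 76 of 128 below 0. The summed level of 12 B cell markers was 290 CPM in WT 4 and 238 to 252 CPM in the other WT thymi, against 231 to 250 CPM in Tol thymi. The summed level of 10 plasma cell markers was 353, 319, 293 and 394 CPM in WT 1 to 4. This was the same order as their immunoglobulin sums of 1907, 1522, 1319 and 2413 CPM. In Tol 1 to 4 the plasma cell markers summed to 305, 330, 339 and 304 CPM. There the orders differed, since Tol 1 held the highest immunoglobulin sum of the Tol thymi, 1638 CPM, and Tol 4 the lowest, 1330 CPM. The part of these cells in the result was not tested. By DESeq2 4 of 216 members passed, 1 higher and 3 lower, where 1244 of 26813 genes passed.

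A count of members whose libraries did not overlap gave 1 gene with every Tol thymus above every WT thymus, where 5.81% of all genes tested did so, and 2 genes below, where 5.95% did so. The higher gene was Igkv1-110, which encodes a kappa variable region and lies at chr6:68270485-68271267 on the plus strand. It had 706, 1165, 568 and 223 counts in Tol and 120, 98, 106 and 153 counts in WT thymi, or 20.6, 64.1, 27.5 and 11.1 CPM against 6.69, 5.57, 6.56 and 5.32 CPM. All Tol values were higher, with Tol 2 the highest. The log2 fold change was 2.35 (SE 0.44, edgeR adjusted p = 0.0607). Igkv1-110 shares 234 words of 31 bases with Igkv1-117, and 36.39% of its words are its own. Igkv1-117 itself stood at 18.3, 5.89, 8.03 and 5.27 CPM in Tol and 5.08, 6.71, 8.41 and 28.5 CPM in WT thymi, where the groups overlapped.

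The lower genes were Igkv3-12 and Ighj1. Igkv3-12 had 9, 1, 4 and 2 counts in Tol and 25, 12, 11 and 20 counts in WT thymi (-2.32, SE 0.43, edgeR adjusted p = 0.0607), with 29.48% of its words its own. Ighj1, shown above, stood at 2.83, 1.93, 2.66 and 2.54 CPM in Tol and 5.63, 5.85, 3.16 and 7.17 CPM in WT thymi (-1.13, SE 0.23, edgeR adjusted p = 0.0687). The groups did not overlap for either gene. As a share of heavy J counts, Ighj1 made up 16.8 ± 2.34% in Tol thymi (14.3 to 19.3%) and 29.0 ± 5.05% in WT thymi (23.6 to 35.3%). The other heavy J genes overlapped between genotypes, and Ighj2, the most abundant, gave -0.23 on the log2 scale (edgeR adjusted p = 0.616).

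Igkj5 was at 2.48, 2.81, 4.11 and 2.49 CPM in Tol and 4.74, 5.40, 3.46 and 9.88 CPM in WT thymi (-1.01, edgeR adjusted p = 0.0969), and Igkv6-25 had 16, 9, 4 and 12 counts in Tol and 74, 32, 80 and 10 counts in WT thymi (-2.63, edgeR adjusted p = 0.0858). Both overlapped between groups. The number of members called was sensitive to Tol 1, as 12 members passed without that library (1 higher and 11 lower), in a fit that called 2978 of 16370 genes.

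**Figure D4:**
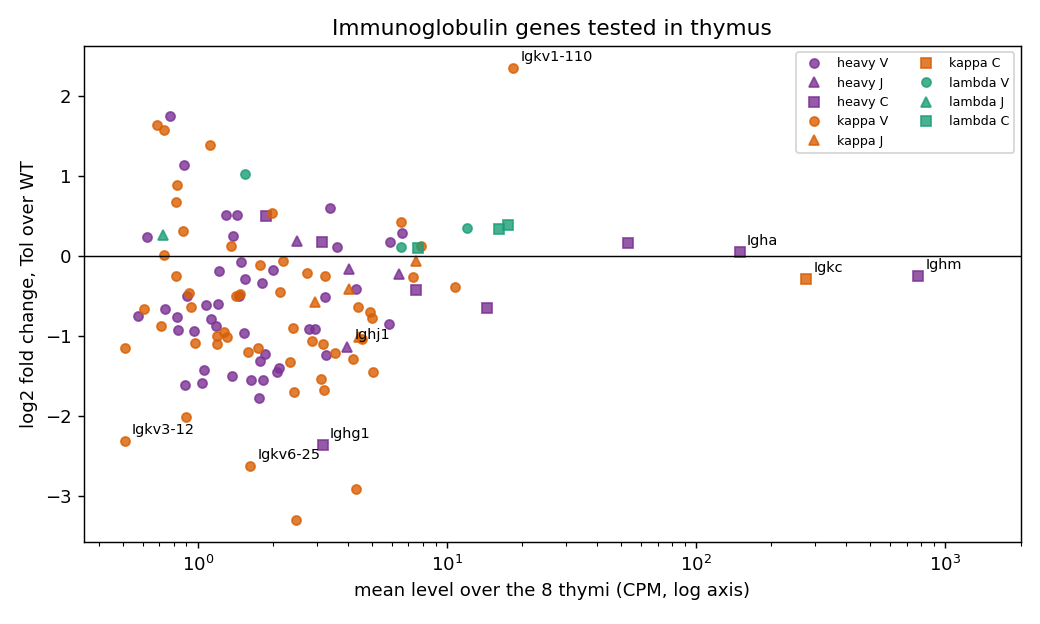
Log2 fold change, Tol against WT, against mean CPM (log axis) of the 121 members tested in thymus, by locus (colour) and segment class (shape). Ighm, Igkc and Igha lie between -0.29 and 0.05, and Igkv1-110 lies at 2.35.

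In the brain the immunoglobulin signal was mainly that of heavy constant genes. In cerebrum 55 of 256 members had any count and 8 reached 3 counts in a library, of which 7 were constant genes, 1 a J gene and 0 V genes. In cerebellum 57 had any count and 7 reached 3 counts, again with 0 V genes. Heavy V genes together had 1 to 5 counts in each brain library, against 1304 to 5614 in thymi, and the V level per kilobase was 0.00314 to 0.0292 of the C level in cerebra and 0.0397 to 0.234 in cerebella. Thymi lay at 0.442 or above, so the ranges of brain and thymus did not overlap.

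**Figure D5:**
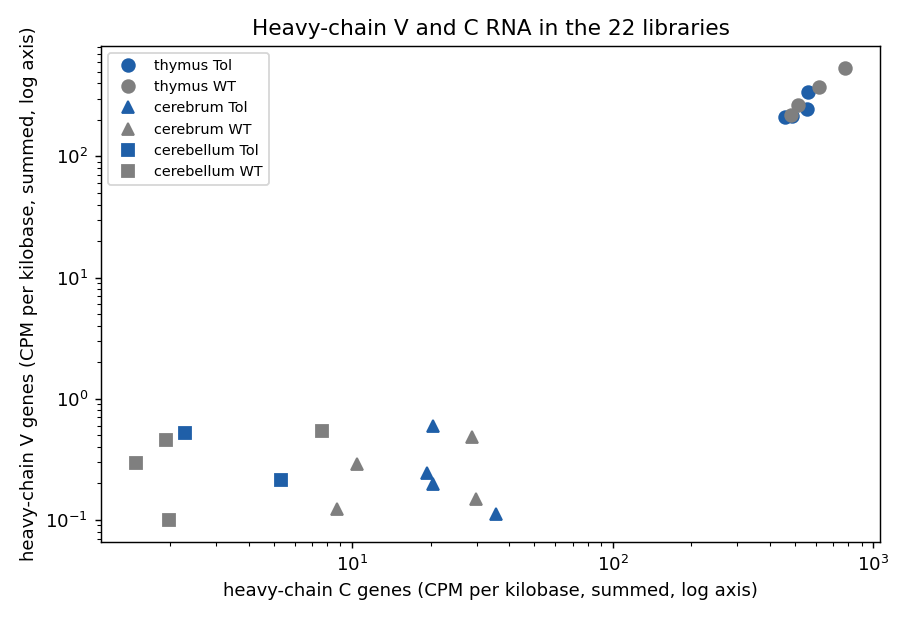
Summed level per kilobase (CPM per kb, log axes) of heavy V genes against heavy constant genes in the 22 libraries, by organ and genotype. Cerebra lie at intermediate C levels with V levels near the floor, and thymi lie high on both axes.

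Ighm was the most abundant member of the cerebrum, at 29.3, 52.4, 28.1 and 29.4 CPM in Tol and 12.6, 44.8, 43.5 and 14.3 CPM in WT libraries (269 to 1126 counts). It varied over 4-fold, with Tol 2, WT 2 and WT 3 high and WT 1 and WT 4 low. Tol and WT overlapped (log2 fold change 0.27, SE 0.43, edgeR adjusted p = 0.885). Ighg2c was at 3.33, 5.35, 2.79 and 3.10 CPM in Tol and 1.32, 2.65, 4.07 and 1.88 CPM in WT cerebra (0.56, SE 0.35, edgeR adjusted p = 0.649). Both overlapped between genotypes. These were the 2 members tested in cerebrum, and 0 passed, as did 0% of all 15596 genes tested (9.66% with an unadjusted p under 0.05, with 0 of the 2 members, and by DESeq2 also 0 members passed). The light chains were near the floor, with 3 to 17 kappa and 0 to 3 lambda counts in a cerebrum. Ighg1 had 15 counts in WT 3, 3 in Tol 4 and 0 elsewhere, and the summed level of 10 thymocyte markers was highest in the same cerebra, at 40.4 CPM in WT 3 and 24.3 CPM in Tol 4 against 5.47 to 9.78 CPM in the other 6. Their part in the result was not tested.

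In cerebellum Ighm was at 3.52 and 8.46 CPM in Tol and 2.91, 11.99, 2.13 and 2.90 CPM in WT libraries (57 to 285 counts). WT 2 and Tol 2 were high and the rest low. The summed cerebellar neuron markers were the lowest in these same libraries, at 255 CPM in Tol 2 and 2672 CPM in WT 2 against 4993 to 6558 CPM in the other 4. The summed level of 6 macrophage and microglia markers was the highest in them, at 135 and 115 CPM against 67.4 to 71.6 CPM. Their part in the result was not tested. The log2 fold change was 0.27 (SE 0.80, edgeR adjusted p = 0.968), and it was -0.50 without Tol 2 (edgeR adjusted p = 0.979), 0.76 without Tol 1 (0.673) and 1.15 without WT 2 (0.819, with an unadjusted p under 0.05). Ighm was the only member that passed the filter there, and 0 of 16662 genes passed the test, with 3.16% at an unadjusted p under 0.05. Ighg2c had 0 to 5 counts in a cerebellum, Igkc 4 to 16 and Igha 2 to 10.

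The summed level of the 12 B cell markers did not follow the order of Ighm in cerebra. It was 39.2 to 57.5 CPM over the 8 cerebra and was 39.2, 40.5 and 57.5 CPM in the 3 cerebra with the highest Ighm, Tol 2, WT 2 and WT 3, against 49.6 and 51.1 CPM in the lowest, WT 4 and WT 1. Of that sum Ralgps2 alone gave 32.7 to 51.9 CPM. The 10 plasma cell markers summed to 103 to 123 CPM in cerebra and 126 to 152 CPM in cerebella, and in cerebra most of this came from Xbp1 at 59.5 to 75.5 CPM and Txndc5 at 38.9 to 48.3 CPM. Of the 12 B cell markers, 5 passed the filter on low counts in cerebrum and 8 in cerebellum. Of the 10 plasma cell markers, 6 and 7 did so. The 3 markers given next were chosen after their values were seen and do not stand for the rest of the lists. In the brain libraries Cd79a, the signalling chain of the B cell receptor, was at 0.129 to 0.523 CPM, Jchain, which joins IgM and IgA units, at 0.1197 to 0.638 CPM and Mzb1, a chaperone of plasma cells, at 0 to 0.157 CPM. In thymi Cd79a stood at 12.5 to 19.4 CPM and Jchain at 52.3 to 106 CPM. The part of B cells and plasma cells in the brain signal was not tested.

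Organs were compared in the 12 WT libraries alone. Of 79 members tested most passed the filter only through thymus, so against thymus only Ighm, which had at least 10 counts in every library, is given with its test. It was higher in thymus than in cerebrum by 4.46 (log2, SE 0.58, edgeR adjusted p = 1.05e-05), where 43.4% of all genes tested were higher in thymus, and higher than in cerebellum by 7.15 (edgeR adjusted p = 4.36e-07), where 41.8% were. Between the brain organs 2 members were higher in cerebrum, where 24.6% of all genes were: Ighm by 2.69 (SE 0.57, edgeR adjusted p = 0.0019) and Ighg2c with 28 to 78 counts in a WT cerebrum and 0 to 5 in a WT cerebellum (edgeR adjusted p = 0.000181). Igkc and Igha passed the filter in neither brain organ alone and entered this fit through thymus. Igkc had 1 to 9 counts in a WT cerebrum and 4 to 10 in a WT cerebellum. Its log2 difference between cerebrum and cerebellum was -0.18 (edgeR adjusted p = 0.880), and that of Igha was -0.46 (edgeR adjusted p = 0.640). At such low counts these values are not set against those of Ighm and Ighg2c.

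Genes that make or regulate immunoglobulins were called in no organ between genotypes. In thymus all 13 listed genes of V(D)J recombination were tested, with 5 higher and 1 lower at an unadjusted p, and 3 had a negative fold change. Over all genes tested, 13.3% were higher and 11.1% lower at an unadjusted p and 48.6% had a negative fold change, with a median of 0.01. The 5 higher were Hmgb1, a DNA-bending cofactor of the RAG enzymes (log2 fold change 0.30), and Nhej1 (0.32), Xrcc4 (0.22), Xrcc6 (0.21) and Xrcc5 (0.17), which take part in the joining of DNA ends, with edgeR adjusted p from 0.0956 to 0.190. The lower was Rag1, a nuclease that cuts at V, D and J borders, at 4607, 3402, 4502 and 3107 CPM in Tol and 5399, 5160, 4846 and 5784 CPM in WT thymi (-0.44, edgeR adjusted p = 0.0927). Its groups did not overlap, as for 5.95% of all genes tested. The 10 thymocyte markers, which include Rag1 and Rag2, summed to between 9307 and 11663 CPM in Tol thymi and between 11298 and 12750 CPM in WT thymi, and their part in the result was not tested.

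Of 14 factors that act on octamer motifs and immunoglobulin enhancers, 14 were tested, 11 had a negative fold change, and 0 were higher and 5 lower at an unadjusted p, among them Pax5, the B cell identity factor (-0.57, edgeR adjusted p = 0.0915). The median of these factors was -0.15. Of 7 genes of class switching and hypermutation, 7 were tested, 2 had a negative fold change and 0 were at an unadjusted p under 0.05. Of 12 B cell markers, 12 were tested, 10 had a negative fold change, and 0 were higher and 3 lower at an unadjusted p (median -0.16). Of 10 plasma cell markers, 9 were tested, 7 had a negative fold change, and 0 were higher and 1 lower at an unadjusted p (median -0.10). These counts stand beside the same background shares over all genes.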

How the data were processed

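RNA was extracted from frozen thymus, cerebrum and cerebellum and sequenced as single-end 65-base reads (TruSeq Stranded mRNA). The authors ran Salmon 0.14.1 against GRCm38 transcripts plus that of Tol, and deposited expected counts per gene as whole numbers, so no rounding was needed. The Ensembl release and the summing of transcripts to genes are not given in the sources used here. The authors' notes also name edgeR 3.9. 0 columns were left unused. Members and gene lists were chosen with earlier results of these data known. The comparison of Tol with WT, organ by organ, used edgeR 4.0.16 under R 4.3.3 (TMM, filterByExpr, quasi-likelihood F test, Benjamini-Hochberg adjustment over all genes tested), and organs in 1 fit over the 12 WT libraries. DESeq2 1.42.0 was an alternative. Summaries used pandas 2.3.3 and SciPy 1.17.1. The fits were tested on simulated data. Intervals are exact (Clopper-Pearson, 95%) and cover counting error only. Genes were matched to GENCODE M21, which held 34465 of 34585 IDs. RefSeq promoters matched 0 members. Named genes were all constant genes, the 5 most abundant V genes a locus, the V gene with the largest share in 1 library, the most abundant J genes and the members with the lowest p; others are said to have been chosen after their values were seen. Libraries of a group were separate samples by their labels, and p-values measure the spread between them. Of 31 pairs of same-group libraries, 0 held like counts (chi-square over genes, divided by its degrees of freedom, at least 4.04). Values of some single genes of the lists are not reported here.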

Additional observations from a re-analysis of the deposited data

Results flagged for a closer look

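Of 114 groups of 4 libraries, 24 had a library set far from its group by Dixon's test, where chance gives about 5.7 (about 1 in 20) and the groups share libraries. The groups are also nested, as the sum of all members holds the heavy sum and Ighm. Some of the genes were named for a large share in 1 library or for a low p. For these reasons the 24 flags are not read against the 5.7. Each is given with its nearest other library in CPM. In thymus, Tol 1 stood at 18.4 for the heavy J sum (nearest 13.9), 10.5 for Ighv3-6 (2.59) and 22.7 for Igkv8-30 (4.55). Tol 2 stood at 19.7 for Ighv1-56 (0.194). Tol 3 stood at 18.8 for Ighg2c (9.61) and 17.6 for Igkv12-89 (6.08), and Tol 4 at 12.3 for Igkv10-96 (5.46). WT 1 stood at 1.39 for Igkv3-12 (0.696) and WT 2 at 19.1 for Iglc1 (14.4). WT 4 was set apart for Ighd at 12.8 (7.75), Ighv6-3 at 15.5 (2.96), Igkv1-117 at 28.5 (8.41), Igkv12-89 at 14.7 (5.80) and Igkv8-30 at 11.4 (4.52).

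In cerebrum Tol 2 was high for the sum of all members at 59.1 (34.5), the heavy locus at 58.7 (33.9), heavy constant genes at 58.5 (33.5) and Ighm at 52.4 (29.4). Ighg1 was at 0.207 in Tol 4 and 0.783 in WT 3, where the other libraries of each group were at 0. In cerebellum WT 2 was high for all members at 13.8 (4.07), the heavy locus at 13.2 (3.55), heavy constant genes at 13.0 (3.44) and Ighm at 11.99 (2.91).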

How the results depend on the processing

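The count of members called between Tol and WT thymi was 0. It was 3 of 233 with no filter on low counts, where 130 of 26851 genes were called. With at least 10 counts in every library it was 1 of 57, where 85 of 14968 genes were called. By DESeq2 it was 4 of 216, where 1244 of 26813 genes were called. It was 0 with DESeq2 size factors, and 0 to 12 when 1 library was left out. The cause was not tested. In cerebrum and cerebellum the count of members called was 0 under every alternative run. The counts of members called between WT thymus and the brain organs follow from the filter, which most members passed through thymus alone, and are not read as results. For WT thymus against WT cerebrum the count of 79 of 79 tested (43.4% of all genes were higher in thymus) became 175 with no filter, 1 with the stricter filter and 148 by DESeq2 (80 to 113 without a replicate), and for WT thymus against WT cerebellum 180, 1 and 154 (80 to 113), as other numbers of members were tested. For WT cerebrum against WT cerebellum the stricter filter left 1 (2 to 3 without a replicate). The log2 difference of sums, Tol minus WT, ranged from -0.33 to -0.04 in thymus, 0.13 to 0.69 in cerebrum and -0.14 to 0.86 in cerebellum with 1 library left out, and the kappa share difference from -5.71 to -2.54 percentage points. Igkv1-110 passed with no filter (adjusted p = 0.0269), with the stricter filter (0.0484) and by DESeq2 (0.00126). Ighj1 passed with no filter (0.0426) and by DESeq2 (0.00149), Igkv3-12 with no filter (0.0426) and Igkj5 by DESeq2 (0.0258). With 1 library left out, the edgeR adjusted p was 0.00893 to 0.213 for Igkv1-110 and 0.00862 to 0.213 for Igkv3-12. It was 0.0143 to 0.223 for Ighj1 and 0.0751 to 0.261 for Igkj5. Ighg1 (lowest edgeR adjusted p 0.0358), Igkv6-25 (0.0390) and Ighv3-6 (0.0214) also passed in at least 1 of these fits.

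Same-numbered libraries did not deviate together in every pair (correlations of -0.183 to 0.0603 in thymus, -0.382 to 0.555 in cerebrum, -0.260 and 0.7002 in cerebellum and -0.003 to 0.117 between WT organs), so the numbers are not taken as pairs. With the replicate block the counts of calls were 0 in thymus, 0 in cerebrum, 0 in cerebellum, and between WT organs 2 for cerebrum against cerebellum and, fixed by the filter as above, 79 and 79 against thymus. Under the block the sign reversed for Igha (-0.0056), Igkv8-30 (-0.20) and Ighm in cerebellum (-0.12). With 1 library left out the sign turned for Igha (-0.22 to 0.22), Ighg3 (-0.0026 to 0.42), Iglc3 (-0.18 to 0.34), Ighv1-26 (-0.71 to 0.77), Ighv6-3 (-0.53 to 1.59), Ighv11-2 (-1.02 to 0.47), Igkv1-117 (-0.96 to 0.51), Igkv12-89 (-0.53 to 0.73), Igkv8-30 (-1.25 to 1.05), Igkv4-57 (-1.03 to 0.66), Iglv2 (-0.26 to 0.69), Igkj2 (-0.33 to 0.24) and Ighm in cerebellum (-0.50 to 1.15). In the brain the depth limits V and light chain genes, which lay near the floor of 3 counts.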

Other observations

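In the 8 cerebra, genes were ranked by how closely their levels followed those of Ighm, and this was done after the values of Ighm were seen. Tmem215, one of the genes ranked highest of 11739 compared, stood at 15.3, 33.3, 15.7 and 17.6 CPM in Tol 1 to 4 and at 2.68, 28.3, 28.6 and 4.29 CPM in WT 1 to 4. Like Ighm, it was high in Tol 2, WT 2 and WT 3 and low in WT 1 and WT 4. Tuba8, a tubulin gene, stood at 11.8, 20.6, 11.97 and 14.1 CPM in Tol and 5.31, 18.5, 17.8 and 7.06 CPM in WT cerebra. Camkk2, a calcium-dependent kinase of neurons, stood at 356, 475, 316 and 373 CPM in Tol and 209.8, 439, 469 and 231 CPM in WT cerebra. The likeness is a description over 8 libraries and was not tested.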
